A study of Mus musculus with 8 samples.

Results

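The genes described here encode the nuclear subunits of the mitochondrial respiratory chain and ATP synthase. They were taken as all non-control probes whose gene name begins with Nduf, Uqcr, Cox4 to Cox8 or Atp5, or is Sdha, Sdhb, Sdhc or Sdhd. The rule goes by gene name and uses no measured value, although the members were chosen with earlier results of these data known. It gave 117 probes of 41174 on the array, under 83 gene names of 27574. Of these, 81 genes were among the 16363 tested, and 73 are subunits used in most tissues, with 35 in complex I, 4 in complex II, 7 in complex III, 12 in complex IV and 15 in complex V. These 73 are called the common subunits below. A further 3 are the isoforms of muscle and fat (Cox6a2, Cox7a1 and Cox8b), and Cox6b2, a testis isoform, was tested apart. The prefixes also caught 4 genes that are not subunits (Ndufaf1 and Ndufa12l, which help to assemble complex I, Atp5s, and Cox4nb, a part of a membrane complex of the endoplasmic reticulum). Cox4i2 and Cox8c were well above background on 0 of the 8 arrays and were not tested.

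RNA came from normal mouse salivary glands and from salivary tumours driven by AKT, a kinase downstream of PI3K. The groups were untreated tumours (n = 2), tumours after 3 days of rapamycin, an inhibitor of the mTOR kinase (n = 1), tumours after 14 days of rapamycin (n = 2), normal submandibular gland without treatment (n = 1) and normal parotid gland without treatment (n = 2). The strain, the construct that carries AKT and the age of the mice are not given in the sources used here. Nor is it given whether the arrays within a group are from different mice, and p-values may therefore measure only the spread between these samples. Because whole tissue was measured, fewer cells of a type and less RNA per cell cannot be told apart.

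The respiratory chain passes electrons from food to oxygen. Complex I takes them from NADH and complex II from succinate, ubiquinone carries both streams to complex III, cytochrome c carries them on to complex IV, and complexes I, III and IV pump protons across the inner mitochondrial membrane. Complex V, the ATP synthase, makes ATP as the protons flow back. All of the complexes except complex II also hold subunits encoded by the mitochondrial genome. Salivary gland cells make and secrete large volumes of fluid and protein and depend on this ATP, while muscle and brown fat, which can lie within or beside a gland, are richer still in mitochondria.

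Promoters of these genes are known for a small set of binding motifs, and windows of 300 bases, reaching 50 bases past the annotated start, were read from the RefSeq promoter table (GRCm38.p6). Windows were present for 62 of the 73 common subunits. The NRF1 motif (GCGCA, then any base, then GCGC) was present in 17 of these genes (27.4%), against 7.17% of all 17492 protein-coding genes with a window. The ETS motif CCGGAAG, which GABPA binds, was in 16 (25.8%) against 12.9% of all genes, the YY1 motif AAGATGGCG in 7 (11.3%) against 2.14%, and the ERR motif TCAAGGTCA in 2 (3.23%) against 0.377%. TATAAA was in 5 of the 62 genes and in 14.8% of all genes. Both strands were searched, NRF1 matches may share bases with each other, and no match shows binding. The 3 windows below were picked as examples of 3 kinds of behaviour after rapamycin. Ndufb4, an accessory subunit of complex I, was higher at day 14. Sdhd, a membrane anchor of complex II, was lower, and Cox8b is a muscle and fat isoform. Capitals mark motif matches, which are 3 NRF1 matches in Ndufb4 (chr16:37654319-37654618, minus strand), 1 NRF1, 1 ETS and 1 ERR match in Sdhd (chr9:50603800-50604099, minus strand) and 1 TATAAA in Cox8b (chr7:140900397-140900696, minus strand).
Ndufb4: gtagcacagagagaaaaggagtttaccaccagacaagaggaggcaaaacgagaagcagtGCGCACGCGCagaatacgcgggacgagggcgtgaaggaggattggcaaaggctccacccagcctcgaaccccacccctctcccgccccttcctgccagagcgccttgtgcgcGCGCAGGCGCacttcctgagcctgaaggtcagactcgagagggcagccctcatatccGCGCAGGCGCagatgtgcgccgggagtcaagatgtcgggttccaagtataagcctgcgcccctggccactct
Sdhd: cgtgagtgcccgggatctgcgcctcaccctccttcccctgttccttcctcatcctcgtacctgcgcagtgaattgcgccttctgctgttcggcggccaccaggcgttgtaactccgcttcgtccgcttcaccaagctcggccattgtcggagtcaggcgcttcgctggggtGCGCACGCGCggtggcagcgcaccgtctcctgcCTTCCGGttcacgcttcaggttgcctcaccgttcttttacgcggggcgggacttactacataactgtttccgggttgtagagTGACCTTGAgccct
Cox8b: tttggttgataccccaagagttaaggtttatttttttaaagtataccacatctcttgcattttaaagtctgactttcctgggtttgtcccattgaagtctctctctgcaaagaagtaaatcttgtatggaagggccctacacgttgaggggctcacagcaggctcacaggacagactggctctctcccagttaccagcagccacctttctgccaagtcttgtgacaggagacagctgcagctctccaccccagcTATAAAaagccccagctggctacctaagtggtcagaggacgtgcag
Of these picked windows, those of Ndufb4 and Sdhd hold NRF1 matches, and that of Cox8b holds none of the other 4 motifs. They do not stand for other members. The windows of Ndufa1, which rose at day 14, and of Ndufv2 and Ndufa10, which fell, hold none of the motifs searched. Whether motifs differ between genes that rose and genes that fell was not tested.

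Signals are given as log2 signal relative to the 75th percentile of the array, so 0 is the signal that 3 in 4 probes stay below and each unit is a doubling. That percentile, before scaling, was 966 and 972 in untreated tumours, 730 at day 3, 177 and 236 at day 14, 277 in submandibular gland and 384 and 145 in parotid gland, and between 43.2% and 58.4% of spots were well above background. Markers of other cells set the arrays apart, but low means cannot be compared between arrays, because genes near background differ in level from array to array. The muscle marker Myh1, well above background on 3 of the 8 arrays, was at −7.42 and −7.89 in untreated tumours and −5.25 in submandibular gland. The mean of 14 skeletal muscle markers was −4.77 and −4.95 in untreated tumours, −3.82 at day 3, 5.83 and 5.95 at day 14, −3.57 in submandibular gland and −4.05 and 2.70 in parotid gland, so that muscle signal was high at day 14 and in parotid replicate 2. The mean of 9 adipocyte markers was −2.62 and −4.81 in untreated tumours, 1.59 at day 3, 3.17 and 3.14 at day 14, 0.25 in submandibular gland and 1.11 and 2.94 in parotid gland. The mean of 8 acinar markers was −2.94 and 0.43 in untreated tumours and −0.40 at day 3, against 7.02 and 7.19 at day 14 and 7.23 and 7.99 in parotid gland, and it was 0.93 in submandibular gland, where 4 of the 8 were well above background. Duct markers (10 genes) averaged −1.43 and −0.58 in untreated tumours, −0.03 at day 3 and 5.73 and 5.82 at day 14. They averaged 5.72 in submandibular gland and 1.51 and 2.48 in parotid gland. At day 14 against untreated tumours 7 of the 10 were called higher and 2 lower, where 47.7% of all genes were called. Slc9a3 was at 3.16 and 2.84 in untreated tumours and −1.47 and −1.52 at day 14. Krt19 was at 2.59 and 4.22 in untreated tumours and 1.12 and 1.24 at day 14. Of 4 T cell markers 0 were well above background in untreated tumours and at day 3, and 4 on each other array, and the mean of 4 B and plasma cell markers lay between −5.49 and −4.51 in untreated and day 3 tumours and between 0.49 and 4.15 elsewhere. The part of these cells in the subunit values was not tested. The mean of 10 proliferation markers lay between 2.27 and 2.94 in untreated and day 3 tumours and between −2.82 and −1.34 elsewhere.

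Set against its own mean over the 5 groups, the median common subunit lay at −0.37 and −0.24 in untreated tumours, −0.38 at day 3, 0.07 and 0.15 at day 14, 0.46 in submandibular gland and −0.08 and 0.34 in parotid gland. The submandibular gland had the highest median in complexes I, II, IV and V, and in complex III parotid replicate 2 (0.47) lay just above it (0.45). Complex II did not share the order of the other complexes. Its median was 0.02 and 0.18 in untreated tumours, −0.45 at day 3, −0.39 and −0.27 at day 14, 0.68 in submandibular gland and −0.21 and 0.13 in parotid gland, so that it was lower at day 14 than in untreated tumours while complexes III, IV and V were higher.

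**Figure D1:**
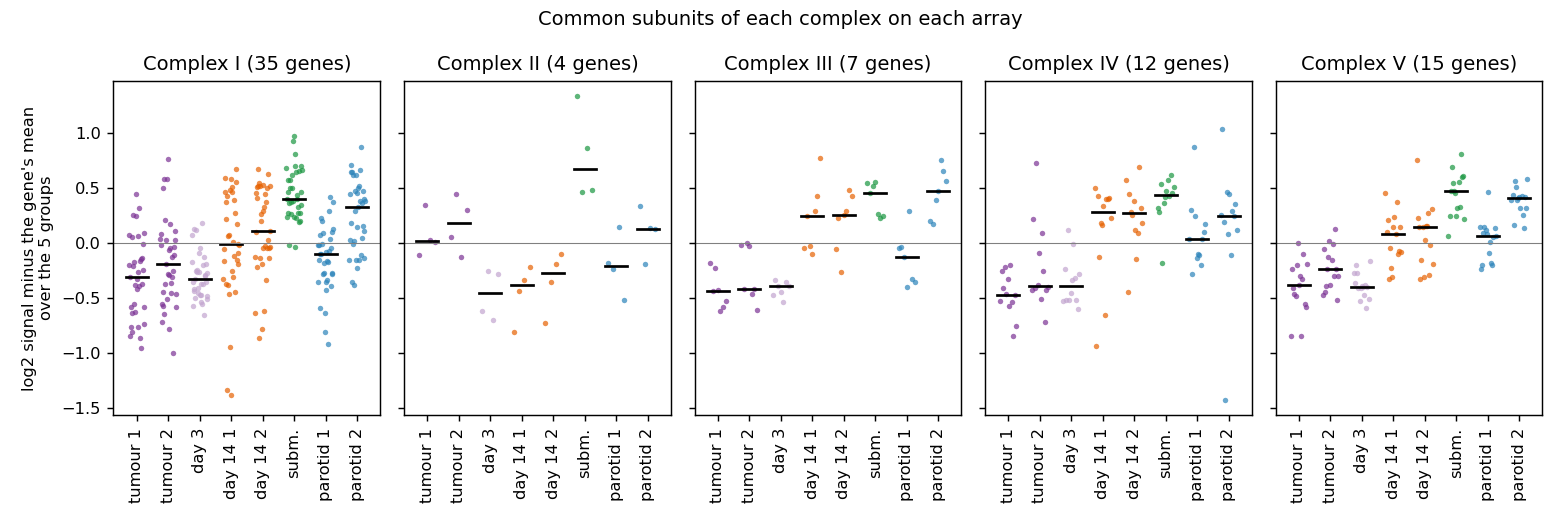
Log2 signal of each common subunit minus its mean over the 5 groups (y axis) on each of the 8 arrays (x axis), by complex. Each point is a gene and each bar the median, and the complex II medians of −0.39 and −0.27 at day 14 lie below those of the untreated tumours (0.02 and 0.18), unlike the other complexes.

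Untreated tumours were compared with parotid gland to see how tumour and normal tissue differ. Of the common subunits, 8 of 28 accessory subunits of complex I, 3 of 12 genes of complex IV and 4 of 15 of the ATP synthase fell in the tumours, each by less than 3-fold. Of the 81 genes, 5 rose and 17 fell at an adjusted p under 0.05 (limma, Benjamini-Hochberg over all genes tested), where 39% of all genes were called, 18.7% as higher and 20.3% as lower. The share of members called, 27.2%, was thus below that of all genes. Among the common subunits 3 rose and 16 fell, with a median of −0.39 against 0.02 for all genes. The count by complex was 2 higher and 8 lower in complex I, 1 higher in complex II, 1 lower in complex III, 3 lower in complex IV and 4 lower in complex V.

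The common subunit with the greatest fall was Ndufa1, a small membrane subunit of complex I encoded on the X chromosome. Its signal was 5.60 and 5.55 in untreated tumours, against 6.97 and 6.92 in parotid gland (−1.37 ± 0.22, SE; adjusted p = 0.00494). The groups did not overlap and the difference amounted to a signal 2.58-fold higher in parotid gland. Ndufa6, an accessory subunit of the same complex, was at 2.70 and 2.70 in untreated tumours and 3.66 and 3.66 in parotid gland (−0.96 ± 0.18, adjusted p = 0.00843). Uqcrh, the hinge protein of complex III, fell (−1.06 ± 0.30), as did Cox7b (−0.92 ± 0.22) and Cox6c (−0.73 ± 0.23) of complex IV and Atp5e (−0.93 ± 0.28), the epsilon subunit of the ATP synthase. The rises were Ndufa10 (1.00 ± 0.26, adjusted p = 0.0278), an accessory subunit of complex I, Ndufab1 (0.75 ± 0.23), its acyl carrier protein, and Sdhd (0.61 ± 0.18, adjusted p = 0.0404). Sdhd was at 4.27 and 4.37 in untreated tumours and at 3.69 and 3.74 in parotid gland, 2 pairs of values that lay close together.

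The 7 nuclear-encoded core subunits of complex I carry its cofactors and catalyse the transfer of electrons. In untreated tumours against parotid gland they had 0 calls in either direction (limma, 0 at an unadjusted p under 0.05). Their median was 0.14, and 5 of the 7 were above 0. ND4L, a core subunit encoded by the mitochondrial genome, is given further below. The 28 accessory subunits had 2 rises, 8 falls and a median of −0.39. The scaling between arrays decided part of this picture. The median of the common subunits in untreated tumours against parotid gland was −0.34 with normexp background correction, −0.01 with quantile normalization and 0.09 in the deposited log2 values. With quantile normalization 36 subunits lay above 0 and 37 below. The calls were 6 higher and 6 lower with quantile normalization and 7 higher and 5 lower in the deposited values. Members called under all 5 scalings were Ndufa1, Ndufa2 and Cox8b as lower and Ndufa10, Cox4nb and Ndufa12l as higher. With the slide as a block 8 members were called, and on slide 1 alone 27. Under the block Ndufa1, Ndufa6 and Ndufa10 kept their calls, while Uqcrh (−0.95, adjusted p = 0.0906), Cox7b (−0.80, adjusted p = 0.0572), Cox6c, Atp5e, Ndufab1 and Sdhd (0.64, adjusted p = 0.0737) lost them. The count was 50 without parotid replicate 1 and 25 without parotid replicate 2, 1 without untreated tumour replicate 1 or replicate 2, and 5 without either day 14 array.

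Against the submandibular gland 1 member rose and 13 fell in the tumours, where 29.4% of all genes were called (14.3% as higher, 15.2% as lower). Of the common subunits 72 of 73 lay below 0, with a median of −0.72 against 0.05 for all genes. Among genes with a mean signal of 6 or above, the median was −0.81 for the subunits and −0.47 for all genes. Of all genes at that level 29.1% lay above 0. The common-subunit median stayed below 0 under all 5 scalings, between −0.72 and −0.31. With quantile normalization and in the deposited values 62 and 61 of the 73 lay below 0. Ndufa1 fell again (5.60 and 5.55 in untreated tumours against 7.21 in submandibular gland, −1.63 ± 0.27, adjusted p = 0.00731). Ndufb4 was at 5.13 and 5.11 in untreated tumours and 6.70 in submandibular gland (−1.58 ± 0.38, adjusted p = 0.026), and Cox7b was at 4.83 and 4.96 against 6.30 (−1.40 ± 0.27). Sdhb, the iron-sulphur subunit of complex II, was at 3.10 and 3.26 against 4.54 (−1.36 ± 0.29, adjusted p = 0.0165), and Sdha, its flavoprotein, was also lower (−0.92 ± 0.24). Further falls were in Atp5j of the ATP synthase stalk (−1.16 ± 0.28) and Uqcrb of complex III (−0.88 ± 0.23). With 1 submandibular array the test assumes that it varied like the replicated groups. The count of 14 was 2 with the slide as a block (Ndufa1 and Cox8b), 4 without either day 14 array, 1 without either untreated tumour and 54 without either parotid array. Slide 1 held no submandibular array.

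**Figure D2:**
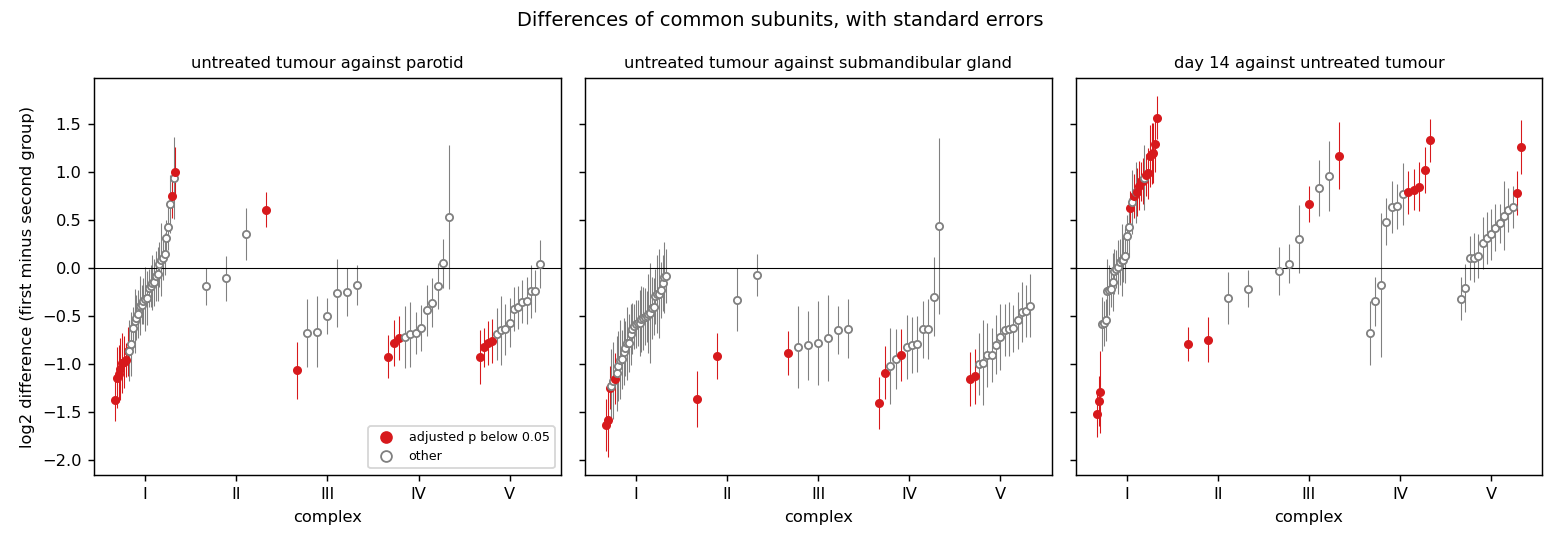
Log2 differences of common subunits (y axis, first minus second group, with standard errors) by complex (x axis) for untreated tumour against parotid, untreated tumour against submandibular gland and day 14 against untreated tumour. Filled points have an adjusted p under 0.05, and complex I holds both the greatest rises and the greatest falls at day 14, up to 1.56 and down to −1.52.

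The submandibular gland against the parotid gland had 0 member calls (limma), where 2.35% of all genes were called, 1.36% as higher and 0.984% as lower, and 9 members had an unadjusted p under 0.05. The common subunits leaned to the submandibular side, with 63 of 73 above 0 and a median of 0.34 against 0.00 for all genes. The size of this lean depended on the parotid array. Without parotid replicate 1 the median was 0.13, with 52 of 73 above 0. Without parotid replicate 2, which shared the slide of the submandibular array, it was 0.55, with 67 of 73 above 0. The greatest differences were Ndufa10 (1.41 ± 0.32, adjusted p = 0.0849) and Sdhb (1.26 ± 0.29, adjusted p = 0.0855), neither past the threshold. The duct markers, given above, averaged 5.72 in the submandibular gland against 1.51 and 2.48 in the parotid glands, and their part in the lean was not tested.

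After 3 days of rapamycin 0 of the 81 members were called (limma), where 0.00611% of all genes were called as 1 gene, and 5 members had an unadjusted p under 0.05. The common-subunit median was −0.05, and its sign depended on the processing. It was 0.10 with normexp, with 46 of 73 above 0, and −0.23 with the slide as a block, with 61 of 73 below 0. The day 3 array was on slide 2 and both untreated tumours were on slide 1, so treatment and slide are mixed here. The isoform Cox8b had the greatest difference, at 1.10 on the day 3 array against −5.14 and −4.19 in untreated tumours (5.76 ± 0.78, adjusted p = 0.133). All 4 complex II genes lay below both untreated tumours at day 3. Sdhd was at 3.68 at day 3, against 4.27 and 4.37 in untreated tumours (−0.64 ± 0.22, adjusted p = 0.486), and Sdha was at 1.16 against 1.88 and 1.73 (−0.65 ± 0.24, adjusted p = 0.517). The day 3 array held 791 spots called non-uniform, against 5 to 51 on the others.

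After 14 days the members moved in both directions. Relative to untreated tumours 25 members rose and 7 fell, where 47.7% of all genes were called, 24.3% as higher and 23.5% as lower, so that the members' share called was below that of all genes. Common subunits accounted for 22 of the rises and 5 of the falls, with a median of 0.42 against 0.02 for all genes. The counts were 13 higher and 3 lower in complex I, 0 higher and 2 lower in complex II, 2 higher in complex III, 5 higher in complex IV and 2 higher in complex V.

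In complex I, Ndufa1 was at 7.23 and 7.05 at day 14, against 5.60 and 5.55 in untreated tumours (1.56 ± 0.22, adjusted p = 0.00255), a 2.96-fold rise. Both of its probes were called. Ndufb4 was at 6.40 and 6.22 at day 14 and 5.13 and 5.11 in untreated tumours (1.19 ± 0.31, adjusted p = 0.0223). Ndufa13, the member of complex I with the highest signal and a protein also known as GRIM-19, was at 8.24 and 8.16 against 6.88 and 6.94 (1.29 ± 0.30, adjusted p = 0.0141). These accessory subunits lay 1 unit or more above the tumours on both day 14 arrays. Ndufb10 (1.20 ± 0.31), Ndufb9 (1.16 ± 0.32), Ndufa2 (0.99 ± 0.27), Ndufb2 (0.97 ± 0.22) and Ndufc1 (0.91 ± 0.20), all accessory subunits, rose as well.

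Other subunits of the same complex fell. Ndufv2, a core iron-sulphur subunit of the NADH-oxidising arm, was at 1.42 and 1.89 at day 14, against 3.02 and 3.34 in untreated tumours (−1.52 ± 0.24, adjusted p = 0.00372). Ndufa10 was at 1.76 and 1.92 at day 14 and 3.15 and 3.29 in untreated tumours (−1.38 ± 0.26, adjusted p = 0.00735). Over the nuclear-encoded core subunits 1 rose (Ndufs7, 0.80 ± 0.25) and 2 fell, with a median of −0.22. Over the accessory subunits 12 rose and 1 fell, with a median of 0.66. The difference between core and accessory subunits was not tested.

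In complex II, both called genes fell. Sdhd was at 3.49 and 3.58 at day 14, against 4.27 and 4.37 in untreated tumours (−0.79 ± 0.18, adjusted p = 0.0141). Sdhb was at 2.40 and 2.48 at day 14 and 3.10 and 3.26 in untreated tumours (−0.74 ± 0.24, adjusted p = 0.0415). These 2 genes lay below both tumours on both arrays. Sdhc, the other membrane anchor, was at 2.72 and 2.84 against 2.94 and 3.24 (−0.31 ± 0.27, adjusted p = 0.369). Sdha was at 1.52 and 1.66 against 1.88 and 1.73 (−0.21 ± 0.19, adjusted p = 0.394), and its second probe fell by 1.69. All 4 genes stayed below 0 under all 5 scalings, and Sdhd was called under each.

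In complex III, Uqcr, a small subunit now named Uqcr11, was at 7.17 and 6.82 at day 14, against 5.87 and 5.78 in untreated tumours (1.17 ± 0.35, adjusted p = 0.0342). Uqcrb, which binds ubiquinone, rose by 0.67 ± 0.19. The core proteins Uqcrc1 (0.30) and Uqcrc2 (0.05) and the Rieske iron-sulphur protein Uqcrfs1 (−0.03) were not called. In complex IV, Cox7b was at 6.08 and 6.37 at day 14 and 4.83 and 4.96 in untreated tumours (1.33 ± 0.22, adjusted p = 0.00468). Cox4i1, the common form of a regulatory subunit, was at 7.53 and 7.60 against 6.50 and 6.60 (1.02 ± 0.24, adjusted p = 0.0153). Cox5b, Cox6c and Cox7a2 rose by 0.79 to 0.85. Cox6a1, the brightest gene of the complex, was at 8.74 and 8.51 against 7.82 and 7.88 (0.77 ± 0.32, adjusted p = 0.0913). In complex V, Atp5e was at 7.74 and 8.05 at day 14, against 6.45 and 6.82 in untreated tumours (1.26 ± 0.28, adjusted p = 0.0126), and Atp5j rose by 0.78 ± 0.23. The catalytic subunit Atp5b, the brightest of complex V, was at 7.72 and 7.79 against 6.79 and 7.62 (0.55 ± 0.36, adjusted p = 0.249), and its other 2 probes were called lower, down to −2.73. The 3 genes of the c ring, Atp5g1 (0.12), Atp5g2 (0.11) and Atp5g3 (0.35), were not called.

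The direction of the common-subunit median at day 14 depended on the scaling. It was 0.42 with the 75th percentile, 0.35 with normexp, 0.05 with quantile normalization and −0.13 in the deposited log2 values. The calls were 18 higher and 8 lower with quantile normalization and 12 higher and 11 lower in the deposited values, beside 22 and 5. Under all 5 scalings 10 members were called higher, namely Ndufa1, Ndufa2, Ndufb2, Ndufb4, Ndufc1, Uqcr, Cox7b, Cox6a2, Cox7a1 and Cox8b, and 5 lower, namely Ndufv2, Ndufa10, Sdhd, Cox4nb and Ndufa12l. With the slide as a block 10 members were called higher and 9 lower, and on slide 1 alone 33 and 9. Under the block Ndufb4 (1.03, adjusted p = 0.0616), Uqcr (1.03, adjusted p = 0.0908), Cox7a2 (0.77, adjusted p = 0.0615), Ndufb10, Ndufb9, Ndufa2, Ndufa3, Ndufs7, Uqcrb, Cox5b, Cox6c and Atp5j lost their calls, while the other rises and falls named above at day 14 kept theirs. The count of 32 was 8 and 10 without day 14 replicate 1 and replicate 2, 9 and 8 without untreated tumour replicate 1 and replicate 2, and 51 without either parotid array.

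Signal level ran through these differences. Among the 26 common subunits with a mean signal of 6 or above, the median at day 14 against untreated tumours was 0.78 and 25 were above 0, while the median of all 330 genes at that level was 0.42. Among the 31 at 4 to 6 it was 0.31 against −0.04 for 1056 genes, and among the 11 at 2 to 4 it was −0.67 against −0.13 for 2785 genes. In untreated tumours against parotid gland the brightest subunits and all genes at that level had nearly the same median, −0.67 and −0.68. The falls of Ndufv2, Ndufa10, Sdhb and Sdhd thus lay in genes of lower signal, and the rises mostly in bright genes. With quantile normalization the bright subunits had a median of 0.19 at day 14, and in the deposited values of −0.15, against −0.32 and −0.50 for all genes of that level.

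**Figure D3:**
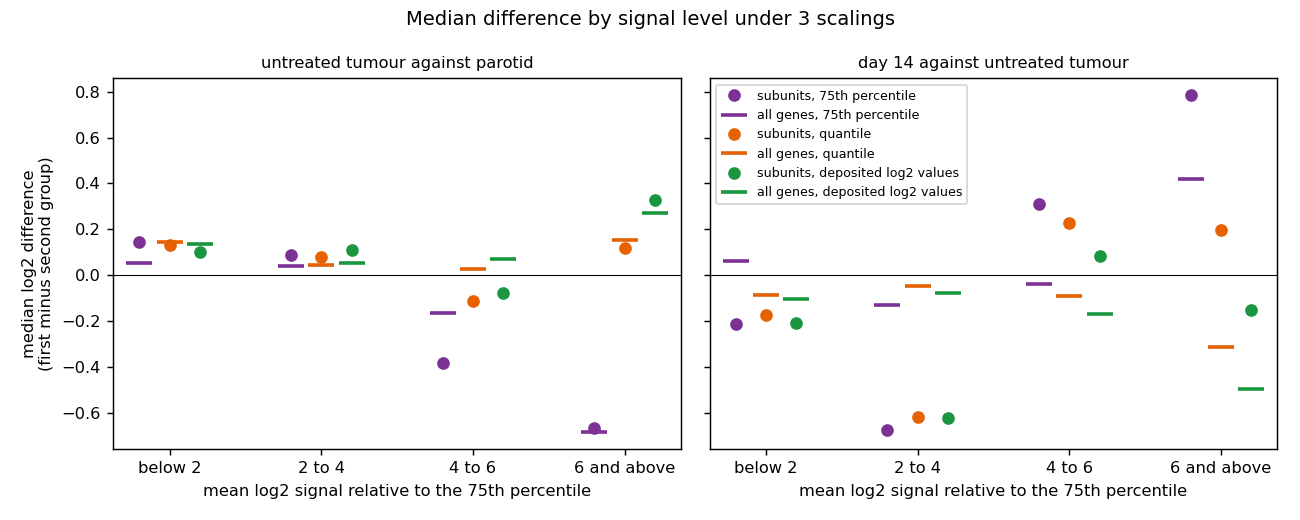
Median log2 difference (y axis, first minus second group) of common subunits (points) and of all genes (dashes) by mean log2 signal (x axis) under 3 scalings. At day 14 the bright subunits lie above all genes of their level under each scaling (0.78 against 0.42 with the 75th percentile), while those at 2 to 4 lie below 0.

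Probes of a gene did not always move together, as 24 member genes had more than 1 probe and 11 of these had probes of both signs at day 14 against untreated tumours. Ndufa3 rose by 0.86 with its brighter probe and had −0.99 with the other. Atp5f1, of the stator stalk, had 1 probe called higher (1.51) and 1 called lower (−2.06), and the brightest gave −0.32. Cox4nb had −1.61 and 0.74. The brightest probe was reported for each gene, and counted by probe 29 rose and 14 fell of 111.

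The isoforms of muscle and fat had the 3 largest rises of all members at day 14 against untreated tumours. Complex IV holds 3 positions where heart and skeletal muscle, and in part brown fat, use another gene than other tissues. Cox6a2, the heart and skeletal muscle form, was at 5.31 and 5.31 at day 14, against −4.17 and −4.13 in untreated tumours (9.46 ± 1.33, adjusted p = 0.00248), a 702-fold rise. It was well above background on all 8 arrays, but its tumour signals were very low, so the size of this fold is uncertain. Its partner Cox6a1 did not pass the threshold, as given above. Cox8b was at 5.53 and 5.78 at day 14, against −5.14 and −4.19 in untreated tumours (10.32 ± 0.64, adjusted p = 0.000236), and it was well above background on 1 of the 2 tumour arrays. Its partner Cox8a was at 7.15 and 7.23 against 6.50 and 6.58 and was not called. Cox7a1 was at 5.85 and 5.69 at day 14, against 2.35 and 2.49 in untreated tumours (3.35 ± 0.34, adjusted p = 0.000809), and its partner Cox7a2 rose by 0.82 ± 0.22. All 3 isoforms were called under every scaling. With the slide as a block their differences were 8.30, 9.78 and 3.14 for Cox6a2, Cox8b and Cox7a1, and on slide 1 alone 9.46, 10.20 and 3.42.

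The other groups separated the 3 isoforms. Cox6a2 was at −3.95 at day 3, near the untreated tumours, while Cox8b was at 1.10 and Cox7a1 at 3.69, above both. In submandibular gland they were at −2.67, 2.19 and 3.63 in the same order. In parotid gland Cox6a2 was at −2.50 in replicate 1 and 2.12 in replicate 2 (SD 3.26), Cox8b at −0.53 and 1.37, and Cox7a1 at 2.26 and 3.25, so that replicate 2 was higher in each. Cox8b fell in untreated tumours against parotid gland (−5.08 ± 0.64, adjusted p = 0.00196) and against submandibular gland (−6.86 ± 0.78, adjusted p = 0.0021), and Cox6a2 had −3.96 ± 1.33 against parotid gland (adjusted p = 0.0566). Muscle markers were well above background for 14 of 14 genes on both day 14 arrays and on parotid replicate 2, for 7 of 14 in untreated tumours and at day 3, for 3 in submandibular gland and for 5 on parotid replicate 1. Adipocyte markers were well above background for 9 of 9 genes on every array but the untreated tumours, which had 7 and 3. Brown fat markers averaged 3.10 and 3.51 at day 14 and −0.65 at day 3, against −2.86 and −3.20 in untreated tumours. The 3 genes of this list did not move alike at day 3. Ucp1 was at 0.63 at day 3, against −4.52 and −4.96 in untreated tumours. Cidea was already at 3.23 and 3.03 in untreated tumours, above the parotid glands (−2.34 and −0.03), and at 3.43 at day 3. Elovl3 was well above background on 2 of the 8 arrays. The part of these cells in the isoform values was not tested.

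**Figure D4:**
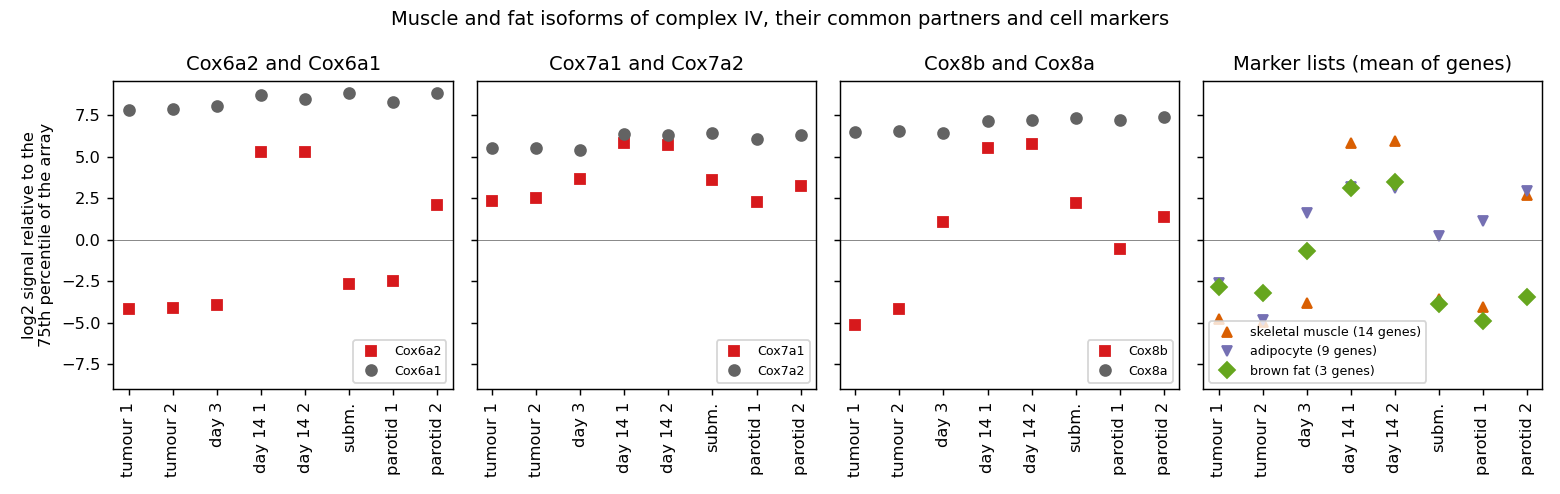
Log2 signal relative to the 75th percentile of the array (y axis) of the muscle and fat isoforms (squares), their common partners (circles) and the means of 3 marker lists on each array (x axis). Cox6a2 and the muscle list are high at day 14 and on parotid replicate 2, while Cox8b, Cox7a1 and the adipocyte list are already above the untreated tumours at day 3.

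Of the remaining isoform pairs, Cox6b2 stayed between −3.23 and −2.16 on all 8 arrays, and Cox6b1, its common partner, between 0.76 and 2.00, with 0 calls for either. Ndufa4, counted here with complex IV as its newer assignment, had 0.64 ± 0.27 at day 14 against untreated tumours and was not called. Cox7a2l, which helps complexes III and IV to associate, was at 3.01 and 3.49 at day 14 against 3.69 and 4.16 in untreated tumours and was not called either (−0.67). With the slide as a block Cox7a2l was called lower (−0.98, adjusted p = 0.0377), and on slide 1 alone as well (−0.92, adjusted p = 0.0367).

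Day 14 was set against the other groups as well. Against day 3, 8 members rose and 3 fell, where 22.8% of all genes were called, 10.9% as higher and 11.8% as lower, and the common-subunit median was 0.48. The rises were the 3 isoforms, Ndufa1 (1.24 ± 0.27), Ndufc1, Cox4i1, Cox7b and Cox7a2, and the falls were Ndufv2 (−1.22 ± 0.29), Cox4nb and Ndufa12l. Without either day 14 array this count was 0, it was 34 without either parotid array and 3 without either untreated tumour. Against parotid gland 3 members rose and 1 fell, where 11.3% of all genes were called, 6.25% as higher and 5.08% as lower, and the common-subunit median was 0.05. The 3 were Cox6a2 (5.50 ± 1.33), Cox8b (5.24 ± 0.64) and Cox7a1 (3.01 ± 0.34), and the fall was Ndufv2, at 1.42 and 1.89 at day 14 and 2.75 and 2.75 in parotid gland (−1.09 ± 0.24, adjusted p = 0.0394). This count was 0 without either day 14 array, 14 without either parotid array and 2 without either untreated tumour. These comparisons share arrays with those above.

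Genes around the chain were described from 6 lists. The array held 3 transcripts of the mitochondrial genome, each with 1 probe. COX2, a catalytic subunit of complex IV, was at 9.48 and 9.21 at day 14, against 7.28 and 7.50 in untreated tumours (1.96 ± 0.35, adjusted p = 0.00571). ND4L of complex I was at 7.39 and 7.20 at day 14 and 5.50 and 5.72 in untreated tumours (1.69 ± 0.28, adjusted p = 0.00435), and CYTB of complex III rose by 1.32 ± 0.25. All 3 were called higher under all 5 scalings, with the lowest values in the deposited table (0.66, 1.07 and 0.47). Against parotid gland the untreated tumours were lower in COX2 (−1.65 ± 0.35) and ND4L (−1.08 ± 0.28). Each was called under 4 of the 5 scalings, and in the deposited values COX2 had −0.46 and ND4L −0.48. In the same comparison CYTB had −0.63 ± 0.25 (adjusted p = 0.0898) and turned to 0.20 in the deposited values.

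Of 17 regulators of mitochondrial biogenesis tested, 5 rose and 5 fell at day 14 against untreated tumours, where 47.7% of all genes were called, and 0 rose and 5 fell in untreated tumours against parotid gland, where 39% were. Ppargc1a, the coactivator PGC-1alpha, was at 3.06 and 2.69 at day 14, against −0.34 and −0.81 in untreated tumours (3.45 ± 0.26, adjusted p = 0.000396), and it fell in untreated tumours against parotid gland (−2.63 ± 0.26). Esrrg, a nuclear receptor of oxidative tissues that binds the ERR motif, was at 1.83 and 1.77 at day 14 and −4.41 and −4.93 in untreated tumours (6.47 ± 0.70, adjusted p = 0.00104). The size of the Esrrg rise varied, with 3.87 under normexp, 5.35 in the deposited values and 2.30 for its other probe. Tfam, which packages mitochondrial DNA, rose by 2.35 ± 0.43 at day 14 with its brightest probe, but another of its 3 probes was called lower (−1.17). The other rises were Ppargc1b (1.95 ± 0.21) and Esrra (1.11 ± 0.19), and the falls were Twnk, the mitochondrial helicase (−1.46), Gabpb1 (−1.37), Tfb1m (−1.10), Nrf1 (−1.03) and Yy1 (−0.78), named after their values were seen. Twnk, Gabpb1 and Nrf1 were not called with normexp, and Yy1 was called under 2 of the 5 scalings and by 1 of its 3 probes, which ran between −0.78 and 0.56.

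**Figure D5:**
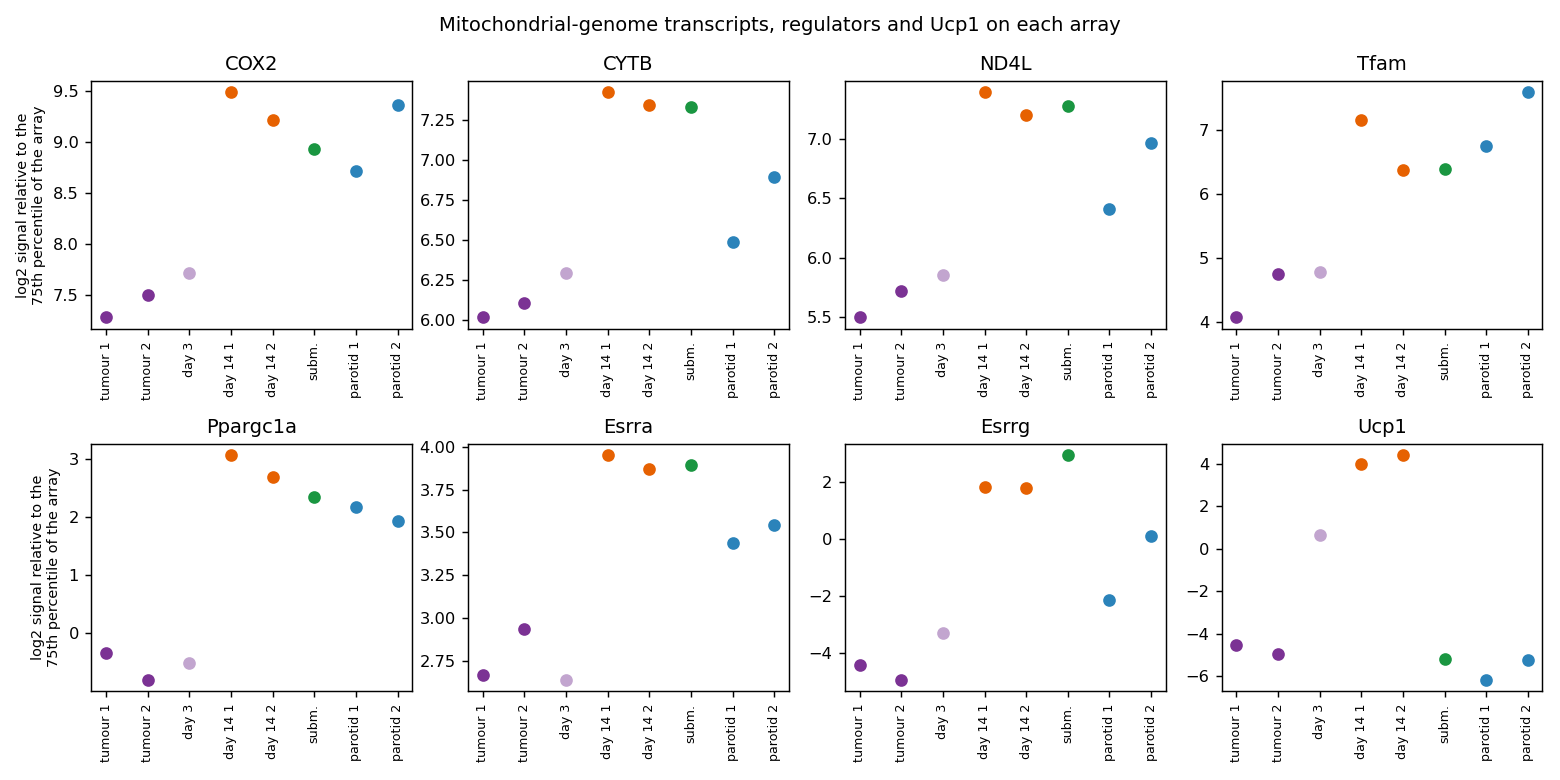
Log2 signal relative to the 75th percentile of the array (y axis, a scale for each gene) of 3 mitochondrial-genome transcripts, 4 regulators and Ucp1 on each array (x axis). COX2, CYTB, ND4L and Ppargc1a are higher on both day 14 arrays than on the untreated tumours, and Ucp1 is high at day 3 and day 14 only.

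For the day 14 counts that follow, 47.7% of all genes were called, 24.3% as higher and 23.5% as lower. Of 23 assembly factors tested, 1 rose and 6 fell at day 14. Cox17, a copper chaperone for complex IV, rose by 2.16 ± 0.47, although its other probe had 0.22. It was called under 4 of the 5 scalings, with 0.71 under quantile normalization and 0.65 in the deposited values. Cox10, which makes the haem of complex IV, was at least 1.91-fold lower because it was not well above background on either day 14 array (adjusted p = 0.00313), but with normexp it had −0.23 on the log2 scale and was not called. Of 16 citric acid cycle and pyruvate dehydrogenase genes 0 rose and 4 fell at day 14 (limma), a share close to the 23.5% of all genes called lower, among them Suclg2 (−0.96 ± 0.24) and Dlat (−0.94 ± 0.27), and another probe of Dlat was called higher (0.75). In untreated tumours against parotid gland Dlat (0.98 ± 0.27) and Idh3a (0.59 ± 0.19) of this list rose, although the other probe of Dlat had −0.25. Cyc1, the cytochrome c1 subunit of complex III, is not among the members because of its name. It was at 5.29 and 5.23 at day 14, against 5.72 and 5.82 in untreated tumours (−0.51). The electron carrier Cycs had −0.59 at day 14, and neither gene was called. Of 10 carriers, uncouplers and channels 3 rose and 3 fell at day 14, beside 47.7% of all genes called. Ucp1, the uncoupler of brown fat, was at 3.98 and 4.42 at day 14, against −4.52 and −4.96 in untreated tumours (8.94 ± 0.45, adjusted p = 0.000171), and at 0.63 at day 3. The day 14 rise of Ucp1 was 6.25 with normexp and 7.74 in the deposited values. Ucp3, its relative of muscle, was at least 6.29-fold higher at day 14 (adjusted p = 0.00119) by this scaling. On the log2 scale Ucp3 had 1.29 with normexp and 2.18 in the deposited values, both below that bound, and it was called under 4 of the 5 scalings. Atpif1, an inhibitor of ATP synthase, rose in untreated tumours against parotid gland (1.45 ± 0.24, adjusted p = 0.00543). Ucp1 is itself 1 of the 3 brown fat markers. The muscle marker mean was −3.82 at day 3, where Ucp1 was already above the untreated tumours. The part of muscle and fat in the Ucp1 and Ucp3 values was not tested.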

How the data were processed

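RNA of 8 mouse samples was labelled from 300 ng for 1-colour Agilent arrays, per the labels' protocols. Per the file headers, the authors' deposited intensity values came from Feature Extraction 10.7.3.1, background-subtracted with no scaling from array to array. A second table, of log2 values that the authors deposited, has array medians between 5.52 and 5.57. Its normalization and centring are not given in the sources used here. It served as an alternative. Background calls and flags (other columns deposited by the authors) were used as filters.

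limma 3.58.1 (R 4.3.3) was fitted to the log2 intensity minus the 75th percentile of each array (5 group means, 8 arrays, intensity trend, 3 residual degrees of freedom, prior 3.28). The single day 3 and submandibular arrays took the spread of the groups with 2 arrays. A probe was used where some group had it well above background on all of its arrays, flagged spots were left out, and the brightest probe stood for a gene, which left 111 member probes and 81 member genes. Where a gene was dim on every array of a group, the fold is a bound against, on each array, the higher of the lowest signal well above background and the gene's own. Adjusted p-values are two-sided Benjamini-Hochberg values over all 16363 genes with a threshold of 0.05. Values after ± are standard errors, and means come from at most 2 arrays a group, whose number limits the precision.

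The 2 slides held 4 arrays each. Slide 1 carried parotid replicate 1, day 14 replicate 1 and both untreated tumours. Within slide 2 every group had 1 array, so no test was possible there. Replicate numbers were not taken to pair the samples. Correlations of deviations between same-numbered arrays were −0.08, 0.01 and 0.14. With 2 arrays a group and the slide mixed in, they cannot show whether same-numbered samples belong together.

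Named genes were the greatest rise and fall of each complex in each comparison, all isoforms, the 4 Sdh genes, the brightest member of each complex and 2 genes of each further list. Of the members whose probes differ in sign, only some are named with their probes. Other called members named here were added after their values were seen. The members and lists were chosen with earlier results of these data known. The scripts were tested on simulated data. Alternatives were normexp (offset 50), quantile normalization, the deposited log2 values, other filters and probe rules, no trend, slide or replicate blocks, slide 1 alone, leaving out arrays and, added after seeing the data, scaling by the median of genes above background on all 8 arrays.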

Additional observations from a re-analysis of the deposited data

How the results depend on the processing

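Counts of members called ranged, when 1 array was left out, from 1 to 50 for untreated tumour against parotid (22 with all arrays), 1 to 54 for untreated tumour against submandibular gland (14), 0 to 2 for day 3 against untreated tumour (0), 8 to 51 for day 14 against untreated tumour (32), 0 to 34 for day 14 against day 3 (11), 0 to 14 for day 14 against parotid (4) and 0 to 13 for submandibular gland against parotid (0). The highest counts came without a parotid array. With normexp 12 were called for untreated tumour against parotid and 6 for day 14 against day 3. Quantile normalization gave 8 for day 14 against parotid and 2 for submandibular gland against parotid, and the deposited values gave 8 for day 14 against parotid and 7 for day 14 against day 3. Without the filter on dim probes 22 were called for untreated tumour against submandibular gland, 1 for day 3 against untreated tumour and 7 for day 14 against day 3. Without the intensity trend 13 were called for untreated tumour against parotid, 6 for day 14 against day 3 and 2 for day 14 against parotid. With the slide as a block the counts were 8, 2, 19 and 5 for untreated tumour against parotid, untreated tumour against submandibular gland, day 14 against untreated tumour and day 14 against day 3. The replicate block gave 5 for day 14 against day 3, and whether its numbers pair the samples is not known. Other counts of calls lay within 1.5 times the main one.

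Some genes turned direction. Cox6a1 in untreated tumours against parotid was called higher with quantile normalization (0.71) and in the deposited values (0.74), and at day 14 against untreated tumours it was called lower (−0.60 and −0.70). In untreated tumours against parotid, Uqcrh turned to 0.159 with quantile normalization and 0.0905 in the deposited values, and Cox8a (0.20) and Atp5e (0.11) turned in the deposited values. At day 14 Atp5g3 was called lower in the deposited values (−0.49). With the mean of a gene's probes Atp5b was called lower at day 14 (−1.58), and Ndufa3 turned to −0.0664 at day 14 and 0.23 in untreated tumours against parotid. The causes were not tested. Cox8b was well above background on 1 of the 2 untreated tumour arrays, so the size of its differences from them is uncertain.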
